A study of Mus musculus with 2 samples.

Results

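Kinesins are motor proteins that walk along microtubules or take them apart, using ATP. The genes described here are those whose symbol is Kif followed by a number, together with Kifc1, Kifc2, Kifc3 and the kinesin light chains Klc1, Klc3 and Klc4, chosen by symbol and not by level. They comprised 43 genes, measured by 109 probe sets, of 18193 named genes and 34945 probe sets with a single gene symbol. Klc2 was not analysed here. They were measured in mouse 5cc7 T cells, which bear a receptor specific for a moth cytochrome c peptide. The cells had been cultured with that peptide (MCC) and were collected on day 5 as blasts, that is, as activated lymphocytes that have grown and divide. RNA of these cells was hybridised to 2 Affymetrix mouse 430 2.0 arrays, called set 1 and set 2. Both arrays belong to 1 group, with no resting or untreated cells beside them, and both descriptions read experiment 1 of 2. Whether they represent separate cultures is not stated, and differences between them can be purely technical.

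A dividing cell uses one group of kinesins to build the spindle, move chromosomes and complete cytokinesis, and another to carry vesicles, organelles and RNA along microtubules between divisions. Genes of the first group are switched on mainly late in the cell cycle, and many of them carry a short promoter element, the cell cycle genes homology region (CHR), often beside CCAAT boxes. In T cells, microtubule motors also serve the turning of the centrosome towards the immune synapse and the delivery of secretory granules. By these known roles the genes were divided into 13 mitotic motors, 15 transport motors, 3 light chains and 12 others.

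The CHR and the CCAAT box were what most of the mitotic kinesin promoters had in common, a feature that the choice by symbol did not use. The sequences given here are the 100 bases before the RefSeq transcript start (build GRCm38.p6) of 3 mitotic kinesins, which carry the CHR at nearly the same distance from the start, and of 1 transport kinesin, which has none in its window. The stretches are chr19:37376282-37376381 on the plus strand for Kif11, chr7:127042421-127042520 on the minus strand for Kif22, chr9:122950981-122951080 on the plus strand for Kif15 and chr2:153291316-153291415 on the plus strand for Kif3b. Each reads 5′ to 3′ along the gene, and capitals mark the CHR hexamer TTTGAA or the CCAAT pentamer on either strand, so that a match on the opposite strand appears as TTCAAA or ATTGG.
Kif11: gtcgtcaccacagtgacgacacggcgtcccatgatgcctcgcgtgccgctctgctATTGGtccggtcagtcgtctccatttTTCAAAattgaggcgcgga
Kif22: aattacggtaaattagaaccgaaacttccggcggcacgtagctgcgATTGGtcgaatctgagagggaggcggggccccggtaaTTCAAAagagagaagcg
Kif15: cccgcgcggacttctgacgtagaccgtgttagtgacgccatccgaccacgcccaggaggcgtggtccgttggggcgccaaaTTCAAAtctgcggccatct
Kif3b: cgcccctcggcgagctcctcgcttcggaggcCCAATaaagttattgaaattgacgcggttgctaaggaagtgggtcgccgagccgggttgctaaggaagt

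In Kif11 the match to the CHR began 19 bases before the start and the CCAAT match 45 bases before it. In Kif22 the nearest matches began 17 and 54 bases before the start. Kif15 had its nearest CHR match at 19 bases before the start and no CCAAT match. Kif3b had a CCAAT match at 69 bases before the start and no CHR match.

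RefSeq promoter windows, 250 bases before to 50 after a transcript start, were matched for 35 of the 43 genes and gave 39 windows. The 12 transport windows came from 10 of 15 genes, with none for Kif5a, Kif5b, Kif13b, Kifc2 and Kifc3. The 12 mitotic windows came from 12 of 13 genes, with none for Kif20a. The hexamer TTTGAA, searched on both strands, was present in 10 of 12 mitotic windows (83.3%) and in 1 of 12 transport windows (8.33%), where 17.9% of all 32851 promoter windows held it. The single transport match lay in one of the 2 Kif1a windows. CCAAT was present in 8 of 12 mitotic windows (66.7%) and 4 of 12 transport windows (33.3%), against 37.4% of all windows. The 2 Kif1b windows overlap and share their CCAAT matches. These are counts of letters in a window and not of bound factors.

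Both elements lay close to the start in most of the mitotic windows that held them. For CCAAT the nearest match was farthest off in Kif14, at 92 bases before the start. The positions of CCAAT over all windows were not counted, so only those of the CHR have a share beside them. The first base of a CHR match fell between 60 bases before and 20 bases after the start in 8 of 12 mitotic windows (66.7%), in 1 of 12 transport windows and in 4.43% of all windows, an interval chosen after the positions were seen. In Kif18b, Kif20b, Kif23, Kif4 and Kifc1 that match began at positions 2 to 20, counted from the first transcribed base. Kif14 and Kif2c had it farther off, at 228 and 103 bases before the start. Kif18a and Kif2b had no match in their windows.

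Other motifs divided the classes less or the other way. The GC box GGGCGG, searched on both strands, was found in 6 of 12 mitotic windows (50%) and 9 of 12 transport windows (75.0%), against 35.7% of all windows. The 9 include the 2 overlapping Kif1b windows, which share their GC box matches. TTTAAA, which reads the same on both strands, was in 2 mitotic windows and 0 transport windows (13.2% of all windows). The CHR variant TTCGAA, also a palindrome, was in 0 of 12 windows of either class and in 1.56% of all windows. Each motif was searched separately, so matches of different motifs may share bases.

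**Figure D1:**
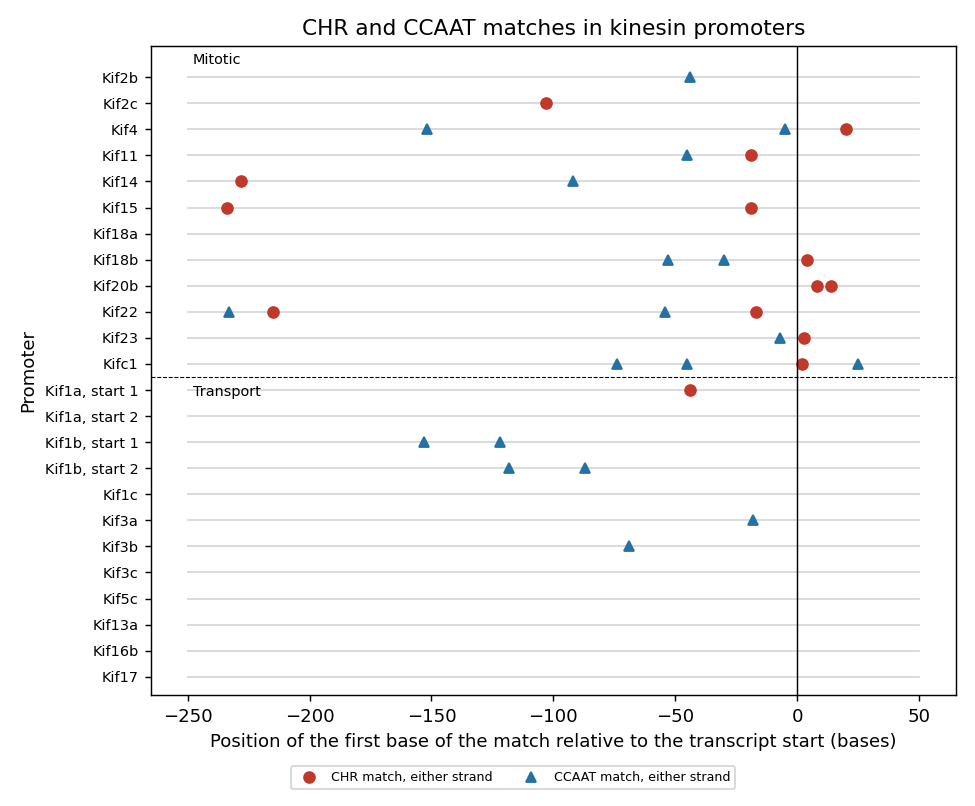
Positions of CHR and CCAAT matches on either strand in the promoter windows of mitotic and transport kinesins, each grey line being 1 window from 250 bases before to 50 bases after the transcript start. CHR matches (circles) occur in 10 of 12 mitotic windows, most of them near the start, and in 1 of 12 transport windows.

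Levels are deposited linear intensities of the brightest probe set of a gene. Above background means, for a probe set, over a fixed bound on each of the arrays, and for a gene, that any of its probe sets met this. The bound was the 95th percentile of probe sets for genes of liver, eye, pancreas and kidney, 54.4 on set 1 and 56.6 on set 2. Probes differ in how strongly they bind, so the level of one gene cannot be ranked against that of another. The arrays had median intensities of 36.4 and 37.9. In this bulk RNA, fewer cells of a type and less RNA per cell cannot be told apart.

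All 9 measured T cell markers were above background, with Cd3e at 1430.7 on set 1 and 1364.6 on set 2. Of the B cell markers 4 of 7 were above background (Cd22, Cd79a, Cd79b and Ms4a1). The summed level of all 7 was 1020.9 on set 1 and 995.6 on set 2. Of 10 macrophage and dendritic cell markers only Csf1r was (57.3 and 146.7), and of 4 NK cell, 12 neuron and 9 motile cilia markers 0 were. The part of B cells in the kinesin levels was not tested.

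Of the 43 kinesin genes, 22 (51.2%) were above background on both arrays, against 47.2% of all named genes. That share is near the background, and so is the share of probe sets, 44 of 109 (40.4%) against 41.6% of all named probe sets. On single arrays, 25 were above it on set 1 and 24 on set 2, against 49.5% and 49.7% of all named genes. By class, 8 of 13 mitotic motors (61.5%), 10 of 15 transport motors (66.7%), 2 of 3 light chains and 2 of 12 other kinesins were above background. Mitotic and transport motors therefore had like shares by this count, and members are not replicates, so no test was made between them. The median intensity was 121 for mitotic motors, 93.55 for transport motors and 53.85 for all named genes, which describes the probe sets and does not compare transcript abundance.

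The number of probe sets differed between the classes. Mitotic genes had 2.0 probe sets each and transport genes 3.6, against 1.92 over all named genes, and a gene with more probe sets has more chances to be called. Among all named genes, 31.8% of those with 1 probe set, 55.1% of those with 2 and 71.2% of those with 3 or more were above background. Among the genes with 3 or more, 5 of 5 mitotic and 9 of 11 transport motors were called. Among those with 1, 3 of 7 mitotic motors and 0 of 1 transport motor were. By probe set, 13 of 26 mitotic (50%) and 23 of 54 transport probe sets (42.6%) were above background.

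The classes parted when the bound was raised. With the 99th percentile of the same organ genes as the bound (99.3 on set 1 and 118 on set 2), 7 of 13 mitotic motors (53.8%) and 4 of 15 transport motors (26.7%) remained above it on both arrays, against 34.6% of all named genes. That bound lies between the values of Cela1 (78.9 on set 1 and 108.8 on set 2) and Kap (127.4 and 129.6). It therefore rests on the organ genes that were themselves above background. With a bound from genes of other organs, such as pituitary, heart and skin, 7 mitotic (53.8%) and 5 transport motors (33.3%) were called, against 35.7% of all named genes. A further setting left the bound unchanged and used the median of the probe sets of a gene. It called 6 of 13 mitotic and 5 of 15 transport motors, against 40.1% of all named genes, and is not a case of a raised bound.

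**Figure D2:**
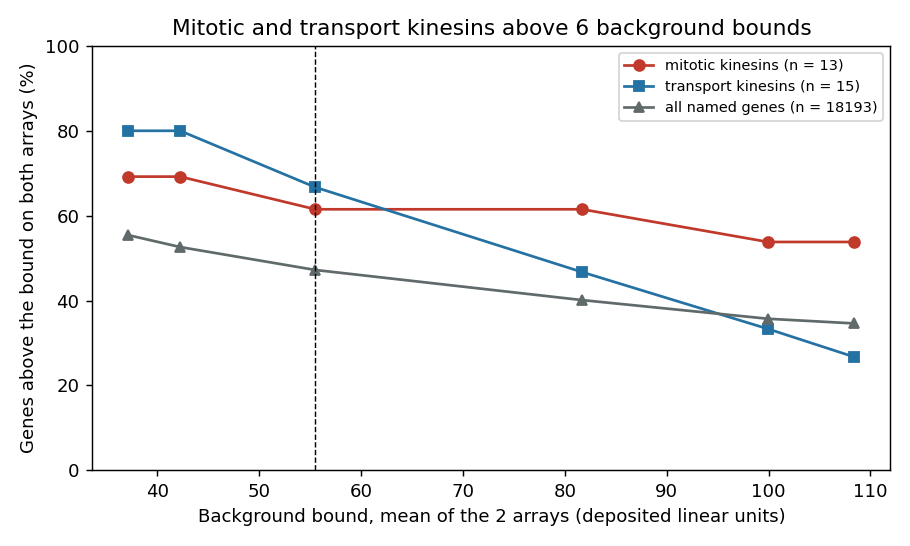
Percentage of mitotic kinesins (13 genes), transport kinesins (15 genes) and all named genes above 6 background bounds on both arrays, plotted against the mean of each bound over the 2 arrays, with a dashed line at the bound used in the text. At the lowest bound 69.2% of mitotic and 80.0% of transport kinesins lie above it, and at the highest 53.8% of mitotic and 26.7% of transport kinesins.

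Motors that build the spindle were partly above background. Kif11, which slides antiparallel microtubules to push the poles apart, measured 178.5 on set 1 and 211.1 on set 2, and its 3 probe sets had means of 180 to 195. All 3 were above background on both arrays and close to each other. Kif15, a spindle motor that can take over part of the work of Kif11, measured 20.7 and 19.4 and was not above background on either array. Kifc1, a minus-end motor that focuses spindle poles, measured 30.0 and 24.6 and was not above background either. It has a close mouse copy, Kifc5b, so its value is uncertain. Both Kif15 and Kifc1 rested on a single probe set.

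Motors that act on chromosomes and microtubule ends gave mixed calls. Kif22, a chromosome-bound motor that pushes chromosome arms outward, measured 482.6 and 547.2 with its brightest probe set, while its other 2 had means of 117 and 55.8. Kif2c, a depolymerase that corrects faulty kinetochore attachments, measured 185.4 and 203.6, and 3 of its 4 probe sets were above background. Both genes were over the bound on each array. The call of Kif22 rested on probe sets of the _x_at and _s_at type, which can also bind related transcripts, and was lost without them. Kif18b, which shortens astral microtubules, measured 157.3 and 159.5 with its only probe set. Kif18a, which damps the movements of chromosomes at metaphase, measured 47.7 and 65.6. It exceeded the bound on set 2 alone and was the mitotic motor nearest to the threshold. Kif2b, a spindle depolymerase related to Kif2c, measured 2.1 and 2.4 and was far below the bound on both arrays.

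The motors of the central spindle and of cytokinesis were above background in 4 of 5 cases, against 47.2% of all named genes, in a grouping by role made after the values were seen. Kif23, the motor of the centralspindlin complex, measured 326.4 on set 1 and 233.6 on set 2, and 1 of its 3 probe sets was above background. Its other probe sets had means of 42.9 and 27.95. The call for this gene therefore rests on a single probe set. Kif20a, which brings the chromosomal passenger complex to the midzone, measured 121.2 and 117.9. Kif20b, which acts late in cytokinesis, measured 122.0 and 120.2, with 1 of 4 probe sets above background. Both differed by less than 0.1 on the log2 scale between the arrays. Kif4, a chromosome and midzone motor, measured 93.2 and 169.7, so that both arrays exceeded the bound at unequal levels. Kif14, a midzone motor that recruits citron kinase, measured 7.3 and 2.4 with its single probe set and was not above background.

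**Figure D3:**
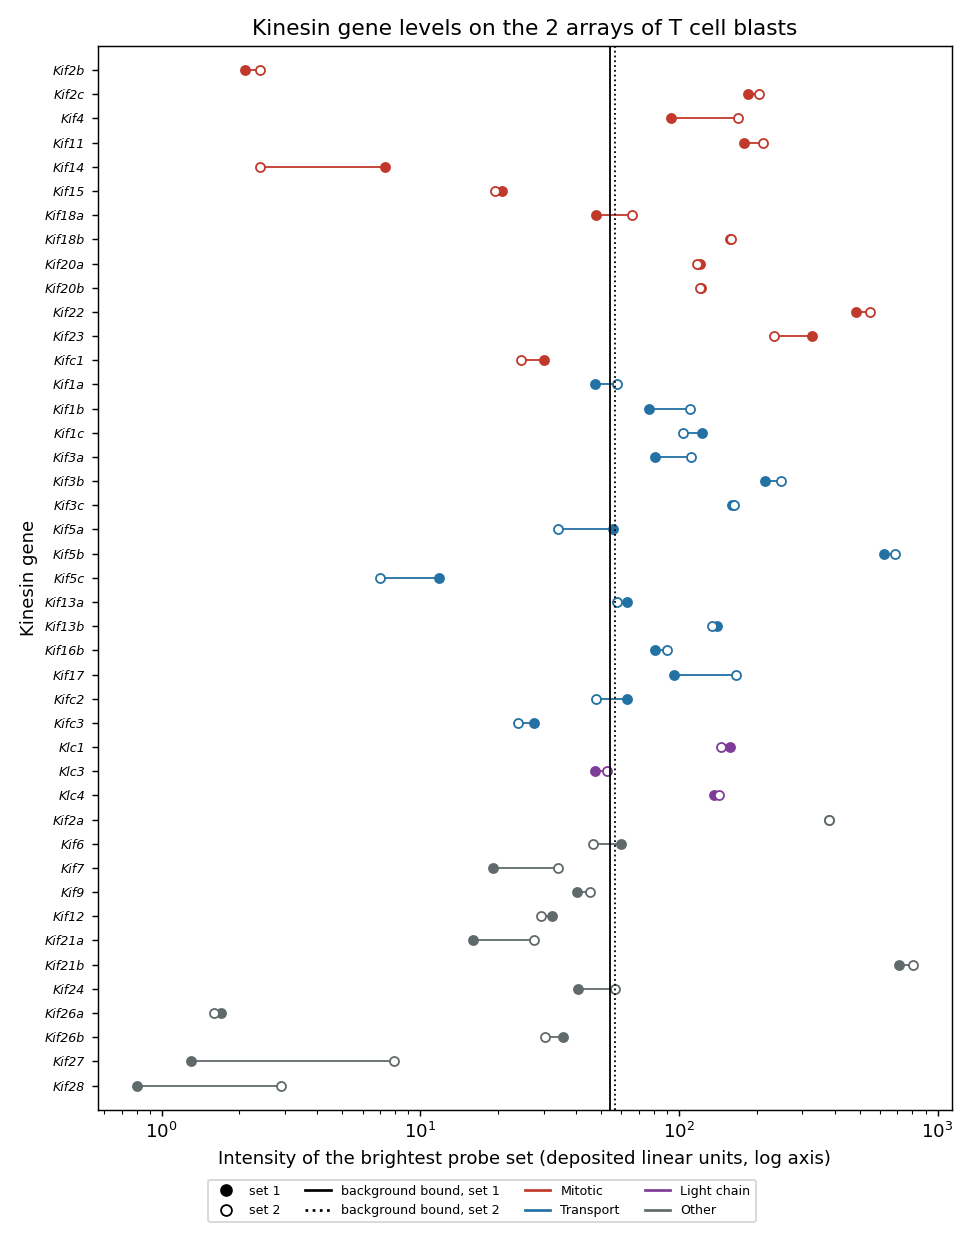
Intensity of the brightest probe set of each of the 43 kinesin genes on set 1 (filled circles) and set 2 (open circles), on a log axis, grouped by class, with the background bounds of both arrays as vertical lines. Of the mitotic kinesins 8 lie right of both bounds on both arrays, of the transport kinesins 10, of the light chains 2 and of the others 2.

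Partners of the mitotic kinesins were nearly all detected. Of 27 measured genes for spindle, midzone and passenger proteins and their regulators, 26 (96.3%) were above background, against 47.2% of all named genes. The number of probe sets of a gene is not allowed for in these shares. The 5 with the highest intensity, a rule for choosing names and not an order of abundance, were Mki67, a coat protein of mitotic chromosomes, at 798 ± 66.9 (mean ± SD, n = 2 arrays), Cdc20, an activator of the anaphase-promoting complex, at 697 ± 10.7, the passenger genes Cdca8 at 643 ± 8.41 and Incenp at 460 ± 64.2, and the spindle pole gene Numa1 at 623 ± 75.7. The levels of Cdc20, Cdca8, Incenp and Numa1 came from probe sets of the _x_at or _s_at type, which can also bind related transcripts. Incenp was above background with 3 of 5 probe sets and Numa1 with 2 of 3, while Cdc20 and Cdca8 were with all of theirs. Direct partners, chosen after their values were seen, included Prc1, which binds Kif4 at the midzone, at 229.0 on set 1 and 250.3 on set 2. That level also came from a probe set of the _s_at type. Racgap1, the other subunit of centralspindlin with Kif23, measured 240.2 and 229.9. Tpx2, which binds Kif11 and Kif15, measured 137.0 and 177.8. Cenpe, a kinetochore kinesin whose symbol kept it out of the 43 genes, measured 138.4 and 137.5. The exception was Lin9, a subunit of the DREAM complex, at 51.9 and 27.2. The high share of partners stood beside Kif14, Kif15, Kif18a, Kif2b and Kifc1 that were not above background.

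Among transport motors, conventional kinesin was represented by 1 of its 3 heavy chains. Kif5b, the ubiquitous heavy chain that in cytotoxic T cells takes part in the last step of granule transport, measured 619.6 on set 1 and 685.9 on set 2, and all 6 of its probe sets were above background. The neuronal heavy chain Kif5a measured 55.4 and 34.2, above the bound on set 1 alone, and the neuronal Kif5c measured 11.8 and 7.0. Neither was above background on both arrays, and 0 of 12 neuron markers were. The light chains join the heavy chain to cargo. Klc1 measured 158.0 and 145.8 with 2 of 3 probe sets above background, and Klc4 137.1 and 142.7 with 1 of 2. Klc3, a light chain known from sperm tails, measured 47.4 and 52.8 and was not above background. Among the genes analysed, the members of conventional kinesin above background were thus Kif5b, Klc1 and Klc4. Klc2 was not analysed, so the full set of light chains cannot be read.

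All subunits of heterotrimeric kinesin-2, which carries cargo in cilia and in the cytoplasm, were above background, against 47.2% of all named genes. These subunits had 2 or 4 probe sets each. Among all named genes, 55.1% of those with 2 and 71.2% of those with 3 or more were above background. Kif3a measured 81.1 on set 1 and 111.0 on set 2, with 3 of 4 probe sets above background. Kif3b, its usual partner, measured 215.6 and 247.9 and all 4 of its probe sets were above background. The alternative partner Kif3c measured 159.9 and 163.3 with 1 of 2 probe sets above background. The accessory subunit Kifap3, chosen here after its value was seen, measured 98.2 and 95.5 with 1 of 2 probe sets above background. Kif17, a homodimeric kinesin-2 that carries receptors in dendrites, measured 95.5 and 165.9 with 1 of 3 probe sets, and the other probe sets had means of 36.15 and 4.75. Kif3b was the only kinesin-2 gene for which every probe set was above background. At the 99th percentile bound, and at the bound from genes of other organs, Kif3b and Kif3c remained, while Kif3a and Kif17 did not.

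Kinesin-3 motors, which move vesicles and endosomes, were above background in 5 of 6 cases, against 47.2% of all named genes. These 5 had 3 or more probe sets each, and 71.2% of all named genes with 3 or more were above background. At the 99th percentile bound only Kif13b of the 6 was called. With the median probe set only Kif1b of the 6 was called. Kif1b, a carrier of mitochondria and synaptic vesicle precursors, measured 76.6 and 110.5 with 4 of 7 probe sets above background. Kif1c, which moves vesicles and Golgi membranes, measured 122.4 and 104.0 with 1 of 4. The levels of both lay above the bound on each array, and other probe sets of both lay below it. Kif13b, also called GAKIN and known to bind the polarity protein Dlg1 in lymphocytes, measured 140.0 and 134.0 with 1 of 4. Kif16b, a motor of early endosomes, measured 80.7 and 89.6 with 1 of 3, a probe set of the _s_at type. Kif13a, which moves recycling endosomes, measured 63.0 and 57.7 with 1 of 5 probe sets and was the transport motor just inside the threshold. The neuronal Kif1a measured 47.3 and 57.8, above the bound on set 2 alone. The minus-end motors Kifc2, at 63.1 and 47.7, and Kifc3, at 27.5 and 23.8, were not above background on both arrays.

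**Figure D4:**
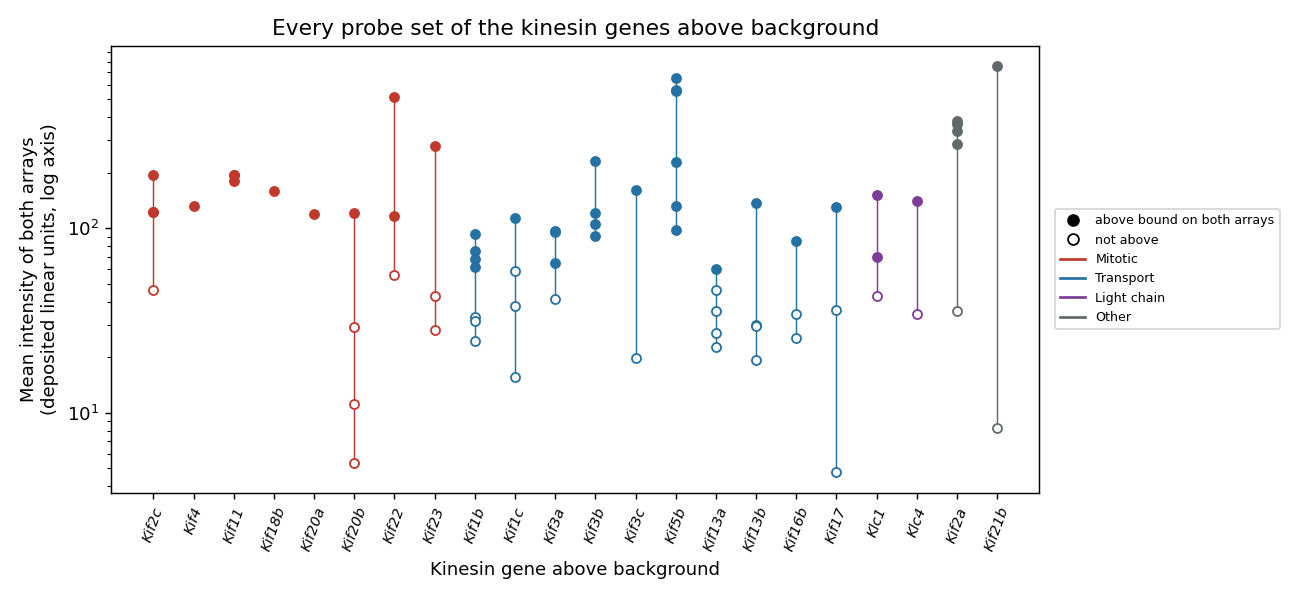
Mean intensity over both arrays of every probe set of the 22 kinesin genes above background, on a log axis, filled where the probe set exceeded the bound on both arrays and open where it did not. All probe sets are filled for 6 genes, namely Kif4, Kif11, Kif18b, Kif20a, Kif3b and Kif5b.

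Partners and cargo adaptors of the transport motors were above background in 21 of 27 measured cases (77.8%), against 47.2% of all named genes. Neither share allows for the number of probe sets of a gene. The 5 named by the same rule were Ranbp2, a nuclear pore protein that binds Kif5b, at 558 ± 0.212 (n = 2 arrays), the dynein regulator Pafah1b1 at 465 ± 8.27, the kinesin-1 activator Map7d1 at 401 ± 70.1, Dlg1 at 345 ± 14.6 and the mitochondrial receptor Rhot1 at 317 ± 29.8. Rhot1 was above background with 1 of 3 probe sets and Dlg1 with 2 of 3, while Ranbp2, Pafah1b1 and Map7d1 were with all of theirs. Adaptors not above background included Fez1 at 7.5 ± 0.424, Mapk8ip1 at 28.05 ± 2.90, Mapk8ip2 at 37.75 ± 2.90, Nefl at 26.6 ± 7.64 and Sybu at 3.35 ± 1.2. Nefl is a neurofilament subunit that kinesin-1 carries in axons. Syne2, which the alphabetical choice of names left out, was also not above background, at 38.0 on set 1 and 39.7 on set 2. Unlike Mapk8ip1 and Mapk8ip2, Mapk8ip3 was above background, at 131.6 on set 1 and 142.8 on set 2, with 2 of 3 probe sets.

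Of the 12 other kinesins, 2 were above background. Kif21b, which limits microtubule growth and is known in T cells for its part in centrosome turning, measured 707.1 on set 1 and 801.8 on set 2 with one probe set. Its second probe set, at 14.1 and 2.5, was not above background, so the probe sets of this gene gave opposite calls. Its relative Kif21a, known from neurons, measured 16 and 27.6 and was not above background. Kif2a, a depolymerase of neurons and spindle poles, measured 381.1 and 380.8, and 4 of its 5 probe sets were above background. Kif21b and Kif2a were thus well clear of the bound on both arrays.

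The remaining kinesins of this group act mainly in cilia, in sperm or in signalling, and 0 of 9 motile cilia markers were above background. Kif6, a ciliary motor, measured 59.6 and 46.6 and exceeded the bound on set 1 alone. Kif24, which keeps cilia from forming on centrioles, measured 40.7 and 56.5 and lay under the bound on both arrays. Kif9, a motor of motile cilia, measured 40.5 and 45.2. None of these 3 passed on both arrays. Kif7, a regulator of Hedgehog signalling, measured 19.2 and 34.0. Kif12, Kif26a, Kif26b, Kif27 and Kif28 ranged from 0.8 to 35.7 over both arrays and were below the bound on each.

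Kinesin genes often gave different calls with different probe sets. Of the 22 genes above background, 19 had several probe sets, and in 16 of these the call rested on part of them. The same held for 3566 of 5659 such genes among all named genes. In 3 genes, Kif11, Kif3b and Kif5b, every one of several probe sets was above background. Counting genes with a single probe set too, every probe set was above background in 6 of 43 kinesins, against 27.5% of all named genes.

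For the 44 kinesin probe sets above background, the log2 difference, set 1 minus set 2 and less its median of -0.03 over all probe sets above background, had a median of -0.04 and an SD of 0.29, against an SD of 0.24 for all 14538 named probe sets above background. A difference past 1.5-fold was found for 3 of 44, all lower on set 1, against 2.68% of all named probe sets above background in either direction and 1.88% in that direction. On the other side 0 of 44 were past the limit, against 0.798%. All 3 had a mean intensity between 128 and 256, where the SD was 0.36 for 14 kinesin probe sets and 0.24 for 4125 named probe sets, of which 2.76% were past the limit. Above 256 the SD was 0.28 for 10 kinesin and 0.18 for 5213 named probe sets, and between 64 and 128 it was 0.23 for 18 and 0.29 for 4789. These are descriptions of few probe sets, several of them of the same gene, and were not tested. The 3 were Kif4 (93.2 on set 1 and 169.7 on set 2, log2 difference -0.84), Kif17 (95.5 and 165.9, -0.77) and a probe set of Kif5b (160.2 and 297.2, -0.87). The other 5 probe sets of Kif5b had log2 differences from -0.48 to 0.18, so the gene as a whole did not show a difference of that size. Kif4 had no second probe set, and those of Kif17 were not above background. With 1 group of 2 arrays no test of these differences was possible, and precision is limited by the number of arrays.

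By class, the SD of the log2 difference was 0.32 over 13 mitotic, 0.30 over 23 transport, 0.11 over 3 light chain and 0.19 over 5 other kinesin probe sets above background. The medians were 0.01 for mitotic and -0.09 for transport probe sets. The largest difference with a higher level on set 1 was that of Kif23, at 0.51, within the 1.5-fold limit.

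**Figure D5:**
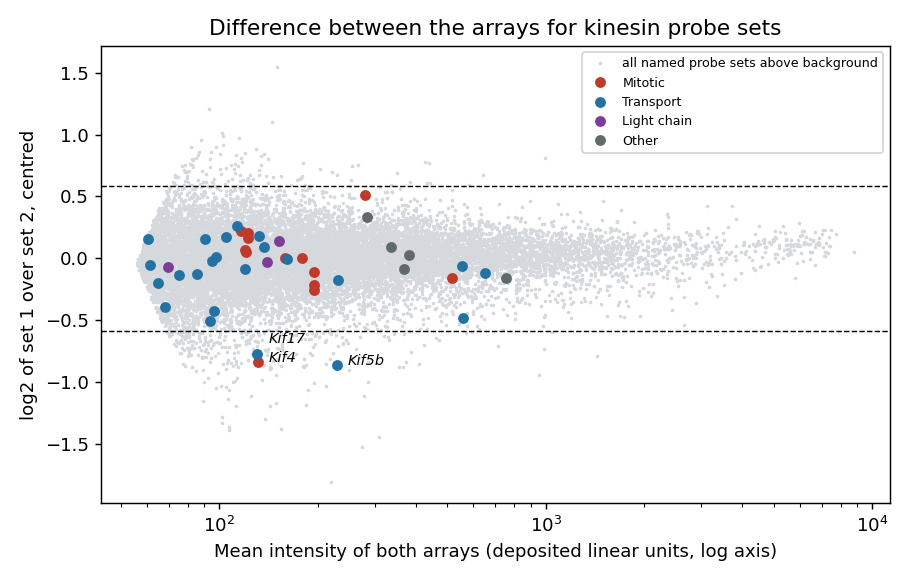
Centred log2 ratio of set 1 over set 2 against the mean intensity of both arrays (log axis) for the 44 kinesin probe sets above background (coloured by class) and all 14538 named probe sets above background (grey), with dashed lines at 1.5-fold. Kif4, Kif17 and 1 probe set of Kif5b lie below the lower line and 0 kinesin probe sets lie above the upper line.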

How the data were processed

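RNA of mouse 5cc7 T cell blasts was measured on 2 arrays of 1 group. The authors deposited 1 intensity value per probe set and array on a linear scale, a scale read from the values (0 to 8860.2, none below 0). How these were summarised from the probes, corrected for background and scaled is not given in the sources, nor is a genome build. Of 45101 probe sets, 64 controls were left out. GEO's platform annotation named 34958 with 1 symbol, 932 with several and 9211 with none, and 34754 of the 34958 matched RefSeq (GRCm38.p6) by Entrez identifier, with 0 symbols changed. The members, classes and lists were chosen with earlier results of these data known. The organ list behind the bound had 41 measured genes with 59 probe sets, of which Cela1 and Kap were above it. That share is low by construction, because the bound was set from the same list. Of 48 measured genes of other organs, such as pituitary, heart and skin, 9 (18.75%) were above the same bound. They include Mbp, which lymphocytes also express. A call above background can therefore include genes that are typical of other organs. Every kinesin gene is named, and of each partner list the 5 brightest genes above background and up to 5 not above it in alphabetical order. Intensities under 1 were set to 1 before log2. Promoter sequences came from RefSeq. Python 3.11.15, numpy 2.4.6, pandas 2.3.3 and matplotlib 3.10.9 were used.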

Additional observations from a re-analysis of the deposited data

How the results depend on the processing

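Counts above background were recomputed with other bounds, each array alone, the median probe set, without probe sets of the _x_at and _s_at type and with wider classes. Over these the kinesin count ran from 15 to 29 and the mitotic count from 6 to 9, both within 1.5 times of 22 and 8, while the transport count fell to 4 with the 99th percentile, to 5 with the second organ list and to 5 with the median probe set, against 10. When every probe set of a gene had to pass, a setting chosen after seeing the data, 6 kinesins, 4 mitotic and 2 transport motors were called, against 27.5% of all named genes. On single arrays 24 to 25 kinesins, 8 to 9 mitotic and 11 to 12 transport motors were called. Mbp, a member of the second organ list that lymphocytes also express, was left out in another setting chosen after seeing the data, which gave 8 mitotic and 7 transport motors, against 40.1% of all named genes. Over 9 settings, leaving aside the one on every probe set, 11 of 22 calls held throughout (4 mitotic, 3 transport), and 8 of the 21 genes not above background passed in at least 1. No like count over all named genes stands beside these, so they do not set kinesins apart from other genes. The count past 1.5-fold between the arrays was 3 of 44, and 31 of 109 when probe sets below background were included. With no centring it was also 3 of 44. A floor of 16 could not change it, because all 44 probe sets lie above the background bound. The partner counts were recomputed only with the 90th percentile, a lower bound at which counts cannot fall, and were again 26 and 21. How they behave under a stricter bound was not tested. The cause of the changes in the kinesin counts was not tested. No paired analysis was possible because both arrays belong to 1 group. Probe sets near the bound limit what these arrays can resolve.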
